A study of Mus musculus with 12 samples.

Results

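The genes described here encode 10 transcription factors that set the identity of blood stem cells and of the myeloid lineage: Gata2, Spi1, Cebpa, Cebpb, Gfi1, Gfi1b, Tal1, Lmo2, Fli1 and Erg. They were taken by symbol from a table of 15366 genes, each matched 1 row, and all 10 were among the 13046 genes with enough reads to be tested. RNA was measured in sorted LSK cells of mouse bone marrow (negative for lineage markers, positive for Sca-1 and Kit), the fraction that holds stem cells and multipotent progenitors. The study asked what is altered in these cells when KDM6B overexpression and loss of Tet2 are combined. Each of the 4 groups had 3 libraries from untreated C57BL/6 animals. KDM6B OE mice carried a human KDM6B transgene under Vav sequences, and their label names no Cre. Tet2 KO mice carried Vav Cre and 2 floxed Tet2 alleles. Double lesion mice carried the transgene, Vav Cre and 2 floxed Tet2 alleles, and Vav Cre mice, the controls, carried the recombinase alone. Vav sequences are active in blood cells in general, so both lesions were present in more than the sorted cells. Neither age nor the transgenic line is stated.

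These factors work largely as a network. GATA2, TAL1, LMO2, FLI1, ERG and GFI1B occupy many of the same enhancers in blood progenitors, with LMO2 bridging DNA-bound partners and not binding DNA itself. PU.1, the product of Spi1, and the C/EBP factors open the granulocyte and monocyte programme, while GFI1 and GFI1B are repressors that recruit LSD1 (Kdm1a) and CoREST. KDM6B erases a repressive histone H3 methyl mark, and TET2 oxidises methylated cytosine in DNA.

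Promoter sequence is shown for Gata2, Cebpb, Gfi1 and its relative Gfi1b, so that the letters next to each start can be read beside the levels. The RefSeq table (build GRCm38.p6) held windows for 7 of the 10 genes, 12 windows in all, and none for Spi1, Lmo2 and Fli1. Each line gives the 250 bases before a start, 5′ to 3′ on the strand of the gene, and positions count back from the start, with −1 as the last base shown. Capitals mark CCAAT boxes in Gata2, the cyclic AMP response element core TGACG in Cebpb, an E-box (CANNTG) in Gfi1, and the GATA motif GATAA, the Gfi1 motif AAATCA and a CCAAT box in Gfi1b, on either strand.
Gata2, first start, chr6:88193641-88193890, plus strand: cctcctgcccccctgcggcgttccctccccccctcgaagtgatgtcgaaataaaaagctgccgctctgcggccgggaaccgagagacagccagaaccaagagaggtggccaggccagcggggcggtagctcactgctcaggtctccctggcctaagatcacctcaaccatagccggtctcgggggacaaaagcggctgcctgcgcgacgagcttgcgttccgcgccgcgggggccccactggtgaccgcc
Gata2, inner start, chr6:88198414-88198663, plus strand: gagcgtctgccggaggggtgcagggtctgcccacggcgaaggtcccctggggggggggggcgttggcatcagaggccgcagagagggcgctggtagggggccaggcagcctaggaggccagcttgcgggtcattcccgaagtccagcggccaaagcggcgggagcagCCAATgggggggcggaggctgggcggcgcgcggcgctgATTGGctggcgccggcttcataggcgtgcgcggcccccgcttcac
Cebpb, chr2:167688665-167688914, plus strand: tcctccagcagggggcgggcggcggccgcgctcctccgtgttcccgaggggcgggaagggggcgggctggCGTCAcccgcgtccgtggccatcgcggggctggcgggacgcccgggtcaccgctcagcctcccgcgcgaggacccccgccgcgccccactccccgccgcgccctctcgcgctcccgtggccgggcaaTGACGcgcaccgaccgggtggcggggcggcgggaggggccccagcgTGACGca
Gfi1, inner start, chr5:107724344-107724593, minus strand: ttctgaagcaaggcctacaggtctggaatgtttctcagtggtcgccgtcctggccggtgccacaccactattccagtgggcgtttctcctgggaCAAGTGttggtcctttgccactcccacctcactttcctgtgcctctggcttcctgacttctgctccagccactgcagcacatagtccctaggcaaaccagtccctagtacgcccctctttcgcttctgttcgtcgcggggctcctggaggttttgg
Gfi1b, chr2:28621983-28622232, minus strand: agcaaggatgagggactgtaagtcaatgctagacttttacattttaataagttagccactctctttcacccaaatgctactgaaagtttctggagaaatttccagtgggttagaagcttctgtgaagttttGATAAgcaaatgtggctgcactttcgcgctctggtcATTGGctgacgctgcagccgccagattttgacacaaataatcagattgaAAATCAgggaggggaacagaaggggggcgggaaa

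The motifs searched on both strands were those in capitals and, beside them, GGAAGT for ETS factors, TTGCNNAA for C/EBP factors, TGTGGT for RUNX factors and TGANTCA for AP-1, which makes 9 in all; no 2 matches overlap in the windows shown. The window at the first Gata2 start held none of them, and the window at the inner start held CCAAT at −83 and −45. The Cebpb window held TGACG at −180, −53 and −7 and no C/EBP match. The inner Gfi1 window held 1 E-box, at −156, and the window at its other start, which runs through an exon of the neighbouring A430072P03Rik, held an E-box at −42 and a C/EBP match at −143. Gfi1b was the 1 factor of the 7 with a Gfi1 match, at −34. It also held GATAA at −119 and CCAAT at −83, and further E-boxes and a TGACG that are not in capitals. Of 32817 promoter windows, 22.6% held GATAA, 12.4% AAATCA, 66.2% an E-box, 17.7% TGACG and 33.8% CCAAT, so each match is common and is a description of letters alone.

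Library depth was even, at 21935022 to 26263370 reads on listed genes, and 3 reads were worth at most 0.139 CPM (counts scaled to a common library size), so no level of a factor rests on a few reads. The targeted genes went with the labels: Tet2 averaged 29.9 ± 5.56 CPM in the 6 libraries with floxed Tet2, against 80.5 ± 12.6 CPM in the 6 without (SD, exact two-sided permutation p = 0.00216). Mouse Kdm6b averaged 10.4 ± 1.82 CPM in the 6 libraries with the transgene, against 6.49 ± 0.869 CPM in the 6 without (exact two-sided permutation p = 0.00433); the human transgene itself was not analysed here. All 10 markers of the sort and of its stem cells were present, with Kit at 356 to 907 CPM and Cd34 at 821 to 1053 CPM, while Cd3e and Pax5, which define T and B cells, reached at most 1.43 and 0.522 CPM. Transcripts of the Y chromosome were present in Tet2 KO 1, double lesion 1 and 3, and Vav Cre 1, so sex was mixed within 3 of the 4 groups. The library Vav Cre 2 stood apart by red cell precursor genes, with 1423 CPM of Car1 against 248 and 498 CPM in the other Vav Cre libraries. Whether the 3 libraries of a group stem from different animals is not stated, and the p-values describe only how these libraries spread, which may be technical in part. In bulk RNA, more cells with a transcript and more transcript per cell cannot be told apart.

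Read per kilobase of exon, the factors spanned a wide range of levels. Lmo2 was the highest in every group, with group means of 395 to 445 CPM per kb, and its libraries lay above those of every other factor. Gfi1b came second, with group means of 69.6 to 89.8 CPM per kb. Fli1, Spi1, Gata2 and Cebpb followed, with group means from 24.6 to 51.8 CPM per kb. In KDM6B OE these 4 lay within 43.7 to 46.1 CPM per kb, and their libraries overlapped. Erg stood at 14.5 to 16.2 CPM per kb, and Gfi1 and Tal1 below it at 5.14 to 9.54 CPM per kb, changing places between groups with overlapping libraries. Cebpa, which drives the step towards granulocytes and monocytes, was the lowest in every group, at 2.71 to 4.29 CPM per kb. In Vav Cre, neighbours in the order overlapped at all steps but those below Lmo2 and below Cebpb. In the other 3 groups Lmo2 lay apart from Gfi1b, Gfi1b from Fli1, and Erg from the gene below it. Cebpb lay apart from the gene below it in the double lesion, but not in KDM6B OE or Tet2 KO, where Gata2 did. Tal1 lay apart from Cebpa in KDM6B OE and the double lesion.

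**Figure D1:**
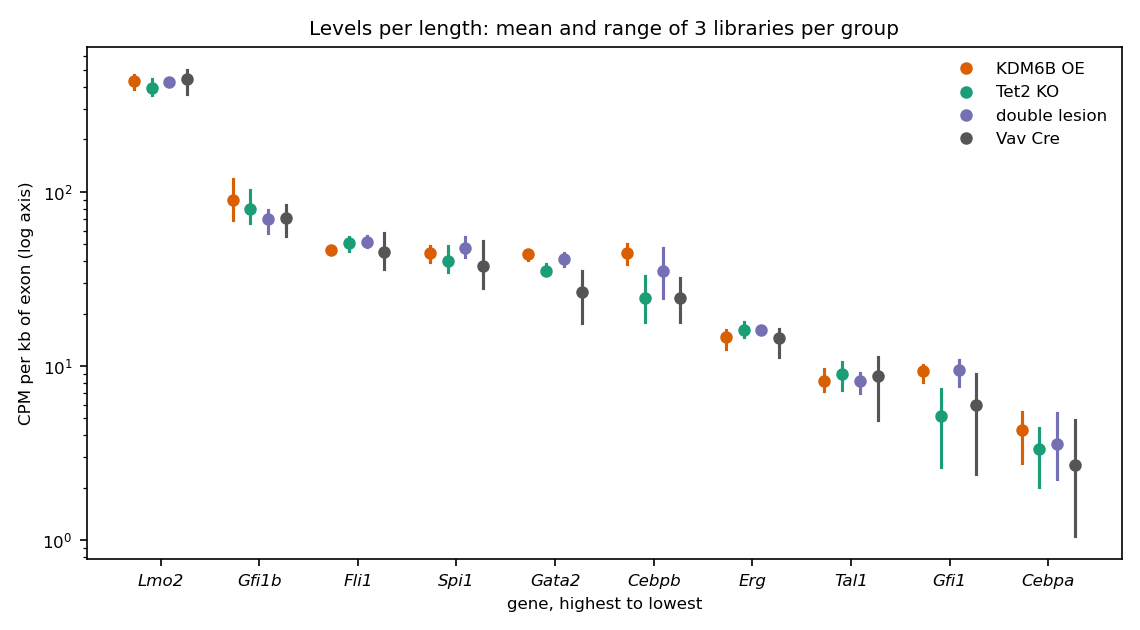
Levels of the 10 factors per length: CPM per kb of exon on a log axis, with a point for each group mean and a line for the range of its 3 libraries. Lmo2 lies highest at 395 to 445 CPM per kb and Cebpa lowest at 2.71 to 4.29, and Cebpb has rank 4 in KDM6B OE but rank 6 in the other groups.

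Few of the 10 factors changed. By limma on log2(CPM + 1), with p-values adjusted by Benjamini-Hochberg over all 13046 genes, 1 factor was called in the double lesion against Vav Cre, where 14.9% of all genes were called. The same factor, Gata2, was the 1 called when the 6 libraries with the transgene were set against the 6 without, where 4.35% of genes were called. No factor was called in KDM6B OE against Vav Cre (0.598% of genes called), Tet2 KO against Vav Cre (0.0307%), the double lesion against KDM6B OE (0%) or against Tet2 KO (0.215%), in the interaction of the lesions (0%), or in the 6 libraries with Tet2 loss against the 6 without (0.207%). At an unadjusted p under 0.05 the counts for these 6 comparisons were 2, 1, 0, 1, 0 and 0, beside 21.6%, 13.5%, 5.91%, 10.6%, 4.43% and 14.7% of all genes. On the recovered reads, DESeq2 called 2 factors in KDM6B OE, and edgeR none there; both tools called none in the other 5. One call in 10 is near the background share in the double lesion, so the count alone says nothing particular of these factors.

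The direction was less even than the calls. Of the 10 factors, 8 were above 0 in KDM6B OE (55.0% of all genes), 7 in Tet2 KO (54.2%) and 7 in the double lesion (54.4%), each against Vav Cre. Their median log2 differences were 0.31 in KDM6B OE, 0.15 in Tet2 KO and 0.30 in the double lesion, beside medians of 0.04, 0.03 and 0.05 over all genes tested. These 3 comparisons share the Vav Cre libraries, so a low value there enters all of them. Between the double lesion and KDM6B OE, which share no library, 4 of the 10 were above 0 (47.8% of genes) and the median was −0.01.

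**Figure D2:**
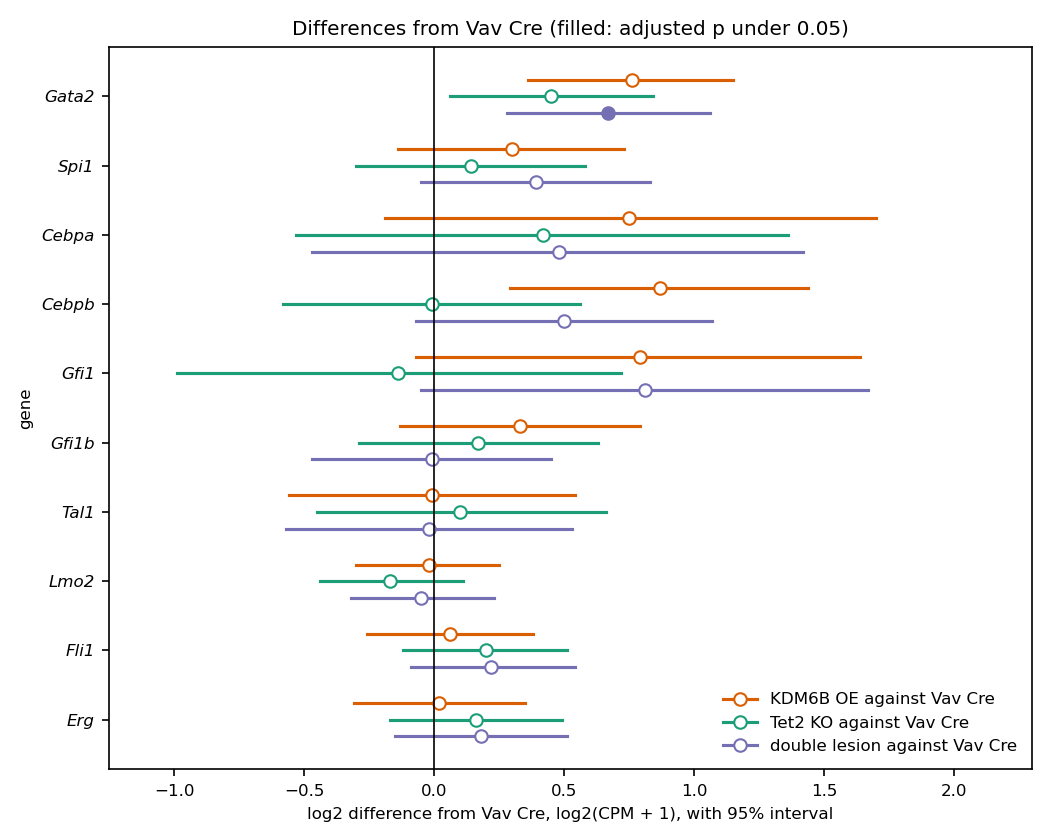
Log2 differences of the 10 factors from Vav Cre on the log2(CPM + 1) scale, with 95% intervals; each gene has a line for KDM6B OE, Tet2 KO and the double lesion. The filled point, Gata2 in the double lesion at 0.67, is the 1 value with an adjusted p under 0.05, and the intervals of Gata2 in all 3 groups and of Cebpb in KDM6B OE lie above 0.

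Gata2 (chromosome 6, 88193891 to 88207032, plus strand, GRCm38) encodes a zinc finger factor needed for stem cell maintenance and for mast cells and basophils. It was at 242, 245 and 220 CPM in KDM6B OE, 207, 180 and 184 CPM in Tet2 KO, 240, 224 and 203 CPM in double lesion mice, and 189, 95.4 and 149 CPM in Vav Cre. All 6 libraries with the transgene but double lesion 3 lay above every library without it, and the Vav Cre libraries spread the most. In the double lesion Gata2 averaged 222 ± 18.7 CPM against 144 ± 46.9 CPM in Vav Cre (SD, n = 3 each), a rise of 0.67 ± 0.18 (log2, SE; limma adjusted p = 0.0294), with no overlap between the groups, as for 16.4% of genes in this direction.

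Without Tet2 loss the Gata2 difference was of like size but was not called: 236 ± 13.7 CPM in KDM6B OE against the same controls gave 0.76 ± 0.18 (limma adjusted p = 0.0796), again without overlap, as for 11.6% of genes in this direction. That value passed without Vav Cre 1 (0.98, limma adjusted p = 0.0256) or without Vav Cre 3 (0.81, 0.0225). Over all genes, 63 were called without Vav Cre 1 and 1936 without Vav Cre 3, against 78 in the main fit. In Tet2 KO the value was 0.45 ± 0.18 (limma adjusted p = 0.324), and Tet2 KO 2 at 180 CPM lay under Vav Cre 1 at 189 CPM. KDM6B OE carries no labelled Cre, so in its contrasts with Vav Cre and with the double lesion the transgene or Tet2 loss and the Cre cannot be told apart. The interaction and both comparisons of 6 against 6 also hold KDM6B OE, for every factor, so the same limit enters them in part. The double lesion and KDM6B OE differed by −0.09 (95% interval −0.48 to 0.31). The interaction was −0.54 ± 0.26 (limma adjusted p = 0.999, unadjusted p = 0.0576). Over both backgrounds, the 6 libraries with the transgene had 203 to 245 CPM with a median of 232, and the 6 without had 95.4 to 207 CPM with a median of 182. That difference was 0.49 ± 0.13 (limma adjusted p = 0.0492; exact two-sided permutation p = 0.00433).

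Both Gata2 calls sat close to the threshold. Without Vav Cre 2 the double lesion difference was 0.40 (limma adjusted p = 0.0714), and the call was also lost without any 1 of the double lesion libraries (limma adjusted p from 0.0547 to 0.122). With the trend on transcript length and GC content removed it was 0.31 (limma adjusted p = 0.15). The library with the lowest Gata2, Vav Cre 2, was the library with the most red cell precursor transcript, 1611 CPM summed over 5 markers against 287 and 571 CPM in the other Vav Cre libraries; the part of those cells in the result was not tested.

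Of the myeloid factors, Cebpb had the clearest difference. Spi1, Cebpa and Cebpb were each higher on average in both groups with the transgene than in Vav Cre, but none passed the test over all genes. Cebpb (chromosome 2, 167688915 to 167690418, plus strand, 1 exon) encodes the C/EBP factor of emergency granulopoiesis and of macrophages. KDM6B OE libraries held 57.9, 75.1 and 67.7 CPM, Tet2 KO libraries 34.9, 26.7 and 49.5 CPM, double lesion libraries 50.7, 71.8 and 36.9 CPM, and Vav Cre libraries 26.9, 35.9 and 48.4 CPM. The KDM6B OE libraries lay above every Tet2 KO and Vav Cre library, while the double lesion overlapped with both.

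Against Vav Cre, Cebpb differed by 0.87 ± 0.27 in KDM6B OE (limma adjusted p = 0.119), 0.50 ± 0.27 in the double lesion (0.215) and −0.01 ± 0.27 in Tet2 KO (0.994). With the transgene, 6 libraries averaged 60 ± 14.5 CPM and 6 without it 37 ± 9.99 CPM, a difference of 0.68 ± 0.19 (limma adjusted p = 0.0547; exact two-sided permutation p = 0.0108). Without Vav Cre 3 it passed (0.79, limma adjusted p = 0.0115), as did the KDM6B OE value against Vav Cre (1.07, 0.0227). Calls over all genes rose there too, from 568 to 2777 for the transgene and from 78 to 1936 in KDM6B OE. On the recovered reads the transgene difference of Cebpb was 0.69 in edgeR (adjusted p = 0.0627) and 0.67 in DESeq2 (adjusted p = 0.011). The exon of Cebpb overlaps Tmem189 on the opposite strand over 312 bases, and the kit does not mark strand, so reads there cannot be told apart. For Tmem189 the KDM6B OE libraries held 33.1 to 37.9 CPM, those of Tet2 KO 24.5 to 29.6 CPM, the double lesion 30.1 to 43 CPM and Vav Cre 15.5 to 35.5 CPM.

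Immediate early genes such as Fos and Egr1, a fast and transient response to stimuli that cell isolation can also start, were high in the libraries with the transgene. Their sum over 15 genes was 7315 to 10385 CPM in KDM6B OE and 7399 to 11208 CPM in the double lesion, against 1449 to 3037 CPM in Tet2 KO and, in Vav Cre, 1324 to 2480 CPM. Of the 15, 12 rose in KDM6B OE, 13 in the double lesion and 0 in Tet2 KO against Vav Cre. Over all genes, 0.521%, 7.34% and 0.0230% were called higher there, so few calls of any kind were made in Tet2 KO. Their part in the values of Cebpb and Gata2 was not tested.

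Spi1 (chromosome 2, 91082390 to 91115756, plus strand) encodes PU.1, whose dose steers progenitors towards myeloid or lymphoid fates. It was at 120, 131 and 107 CPM in KDM6B OE, 97.6, 93.9 and 132 CPM in Tet2 KO, 114, 148 and 121 CPM in double lesion mice, and 85.1, 75.2 and 141 CPM in Vav Cre. Vav Cre held both the lowest library of the 12 and the second highest, and all groups overlapped. The difference from Vav Cre was 0.39 ± 0.20 in the double lesion (limma adjusted p = 0.211), 0.30 ± 0.20 in KDM6B OE (0.418) and 0.14 ± 0.20 in Tet2 KO (0.799). Without Vav Cre 3 the double lesion value was 0.66 (limma adjusted p = 0.0098), and the KDM6B OE value also passed, at 0.57 (0.033). Calls over all genes rose there too, from 1947 to 3589 in the double lesion and from 78 to 1936 in KDM6B OE.

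Cebpa (chromosome 7, 35119293 to 35121928, plus strand, 1 exon) was at 7.35, 14.4 and 12.1 CPM in KDM6B OE, 5.36, 9.49 and 11.7 CPM in Tet2 KO, 8.09, 14.1 and 5.95 CPM in double lesion mice, and 2.8, 5.63 and 13 CPM in Vav Cre. Libraries of 1 group differed more than the group means did, and the groups accounted for 20.6% of its variance. Set against Vav Cre, Cebpa differed by 0.75 ± 0.44 in KDM6B OE (95% interval −0.19 to 1.70), 0.42 ± 0.44 in Tet2 KO and 0.48 ± 0.44 in the double lesion (limma adjusted p = 0.332, 0.696 and 0.481). Without Vav Cre 3 the KDM6B OE value was 1.25 and just passed (limma adjusted p = 0.0499). Calls over all genes rose there too, from 78 to 1936.

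The myeloid factors peaked together. Spi1, Cebpa and Cebpb each had their highest value of a group in the same library, KDM6B OE 2, Tet2 KO 3, double lesion 2 and Vav Cre 3. The sum of 22 genes that C/EBP factors or PU.1 are known to activate, such as Mpo, Elane and Csf3r, was highest in those same libraries, where KDM6B OE 2 held 4835 CPM, Tet2 KO 3 8484 CPM, double lesion 2 7179 CPM and Vav Cre 3 5920 CPM. So was the immediate early sum, while the sum of 8 monocyte markers peaked there in 3 of the 4 groups and in Vav Cre 2 in the other. This pattern was noticed after the values were seen and no test was made of it.

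Gfi1 and Gfi1b encode close zinc finger repressors, Gfi1 known for stem cell quiescence and granulocytes and Gfi1b for red cells and megakaryocytes. Gfi1 (chromosome 5, 107716657 to 107726036, minus strand) was at 25.9, 30.9 and 32.2 CPM in KDM6B OE, 17.1, 8.38 and 23.7 CPM in Tet2 KO, 32, 24.5 and 34.8 CPM in double lesion mice, and 20.7, 7.64 and 28.7 CPM in Vav Cre. The double lesion libraries all lay above the Tet2 KO libraries, as for 10.8% of genes in this direction, while Vav Cre 3 overlapped with both transgene groups. With the transgene, 6 libraries averaged 30 ± 3.98 CPM and 6 without it 17.7 ± 8.41 CPM, a difference of 0.87 ± 0.28 (limma adjusted p = 0.0803; exact two-sided permutation p = 0.00866).

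Gfi1 was less certain in single comparisons. The value was 0.79 ± 0.40 in KDM6B OE (limma adjusted p = 0.272), 0.81 ± 0.40 in the double lesion (0.178) and −0.14 ± 0.40 in Tet2 KO (0.904), each against Vav Cre. The double lesion against Tet2 KO gave 0.95 ± 0.40 (limma adjusted p = 0.44). The libraries Vav Cre 2 and Tet2 KO 2 were far below the others, and without Vav Cre 2 the differences from Vav Cre were 0.27 in KDM6B OE and 0.29 in the double lesion. Without Vav Cre 3 the double lesion value was 1.18 and passed (limma adjusted p = 0.0375), as did the transgene difference (1.05, 0.0151). Calls over all genes rose there too, from 1947 to 3589 in the double lesion and from 568 to 2777 for the transgene. Over the 12 libraries Gfi1 had the largest spread of the 10, with an SD of 0.69 on the log2 scale.

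Gfi1b (chromosome 2, 28609450 to 28621982, minus strand) was at 151, 217 and 126 CPM in KDM6B OE, 121, 186 and 131 CPM in Tet2 KO, 106, 133 and 143 CPM in double lesion mice, and 102, 154 and 130 CPM in Vav Cre. All groups overlapped, with KDM6B OE 2 the highest. Against Vav Cre it differed by 0.33 ± 0.21 in KDM6B OE, 0.17 ± 0.21 in Tet2 KO and −0.01 ± 0.21 in the double lesion (limma adjusted p = 0.38, 0.757 and 0.986). With the columns rescaled to equal totals the double lesion value turned to 0.08. The log2 level of Gfi1b exceeded that of Gfi1 by 2.40 ± 0.43 in KDM6B OE, 3.16 ± 1.01 in Tet2 KO, 2.03 ± 0.35 in the double lesion and 2.85 ± 1.14 in Vav Cre (SD, n = 3 each, per CPM and not per length), with wide spread in the groups without the transgene.

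The stem cell factors Tal1, Lmo2, Fli1 and Erg showed no difference past the test in any comparison. Tal1 (chromosome 4, 115056426 to 115071755, plus strand), a partner of GATA factors in an E-box-binding complex, was at 35, 41.9 and 31.3 CPM in KDM6B OE, 39.7, 46.4 and 31.8 CPM in Tet2 KO, 30.8, 36.8 and 39.8 CPM in double lesion mice, and 44, 49.6 and 21.4 CPM in Vav Cre. Vav Cre held its lowest library and its highest, and groups accounted for 2.54% of its variance, the least of the 10. The double lesion differed from Vav Cre by −0.02 (95% interval −0.57 to 0.53).

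Lmo2 (chromosome 2, 103957986 to 103981878, plus strand), the bridging partner of that complex, was the steadiest, at 1018, 850 and 960 CPM in KDM6B OE, 968, 814 and 782 CPM in Tet2 KO, 962, 876 and 940 CPM in double lesion mice, and 1081, 1019 and 794 CPM in Vav Cre. The highest library was 1.38 times the lowest, and all groups overlapped. Against Vav Cre the difference was −0.02 in KDM6B OE (95% interval −0.30 to 0.25), −0.17 in Tet2 KO (−0.44 to 0.11) and −0.05 in the double lesion (−0.32 to 0.23), and the first and last turned positive, at 0.02 and 0.04, with equal totals. These intervals were the narrowest among the 10 factors.

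Fli1 (chromosome 9, 32422204 to 32542861, minus strand) and Erg (chromosome 16, 95359169 to 95586593, minus strand) encode ETS factors that maintain stem cells, Fli1 also serving megakaryocytes. Fli1 was at 163, 153 and 167 CPM in KDM6B OE, 191, 182 and 159 CPM in Tet2 KO, 180, 168 and 194 CPM in double lesion mice, and 203, 143 and 126 CPM in Vav Cre. The double lesion libraries lay just above those of KDM6B OE, as for 8.98% of genes in this direction, by 0.16 (95% interval −0.15 to 0.48; limma adjusted p = 0.941). Erg was at 56.2, 43.5 and 51.9 CPM in KDM6B OE, 61.9, 51.1 and 53.5 CPM in Tet2 KO, 56.2, 55.9 and 56.8 CPM in double lesion mice, and 56.8, 38.8 and 54.8 CPM in Vav Cre. Erg libraries of the double lesion lay within 1 CPM of each other, and all groups overlapped with Vav Cre. Against Vav Cre the double lesion values were 0.22 ± 0.15 for Fli1 and 0.18 ± 0.15 for Erg (limma adjusted p = 0.318 and 0.438). Without Vav Cre 1 the Fli1 value was 0.42 and passed (limma adjusted p = 0.0372).

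**Figure D3:**
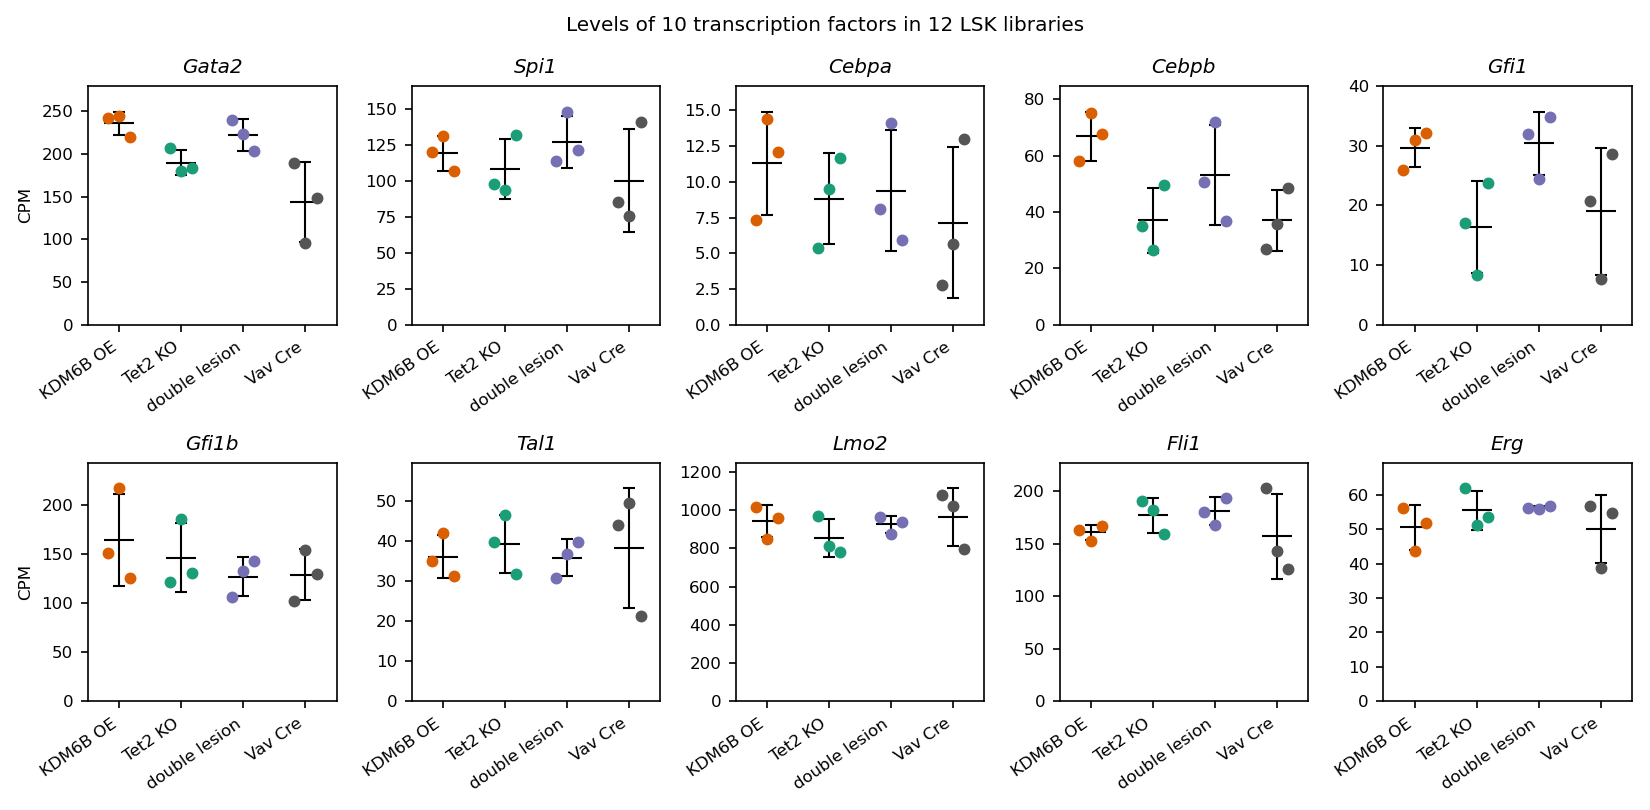
CPM of each of the 10 factors by group, with a point per library and a bar for the mean ± SD of 3 libraries; axes start at 0. Gata2 has its 3 Vav Cre points lowest on average (144 ± 46.9 CPM), Cebpb and Gfi1 are higher in the groups with the transgene, and Lmo2 lies at 782 to 1081 CPM throughout.

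How the factors differed among libraries of 1 group separated them into sets with shared peaks. Gfi1b and Tal1 were highest in the same library of every group, KDM6B OE 2, Tet2 KO 2, double lesion 3 and Vav Cre 2, and those are not the libraries in which Spi1, Cebpa and Cebpb peaked, KDM6B OE 2 excepted. Lmo2 was highest in library 1 of every group, as was the sum of the 10 markers of the LSK sort, where KDM6B OE 1 held 3311 CPM, Tet2 KO 1 3579 CPM, double lesion 1 3800 CPM and Vav Cre 1 3076 CPM. Gfi1 was highest in library 3 of every group. These matches were noticed after the values were seen, and they are given as a description with no test.

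Vav Cre was the most uneven group. In 8 of the 10 factors the largest SD of log2(CPM + 1) was in Vav Cre, as in 54.6% of all genes, and the exceptions were Cebpb and Gfi1b. The median SD of the factors was 0.17 in KDM6B OE, 0.27 in Tet2 KO, 0.19 in the double lesion and 0.44 in Vav Cre, against 0.15, 0.21, 0.15 and 0.28 over all genes. Vav Cre 2 was the lowest of the 12 libraries for Gata2, Spi1, Gfi1 and Erg, as for 22.3% of genes, and KDM6B OE 2 the highest for Gata2, Cebpa, Cebpb and Gfi1b, as for 5.14%. Groups accounted for 64.8% of the variance of Gata2, 56.7% of Cebpb and 44% of Gfi1, and for 2.54% to 26.8% in the other 7.

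**Figure D4:**
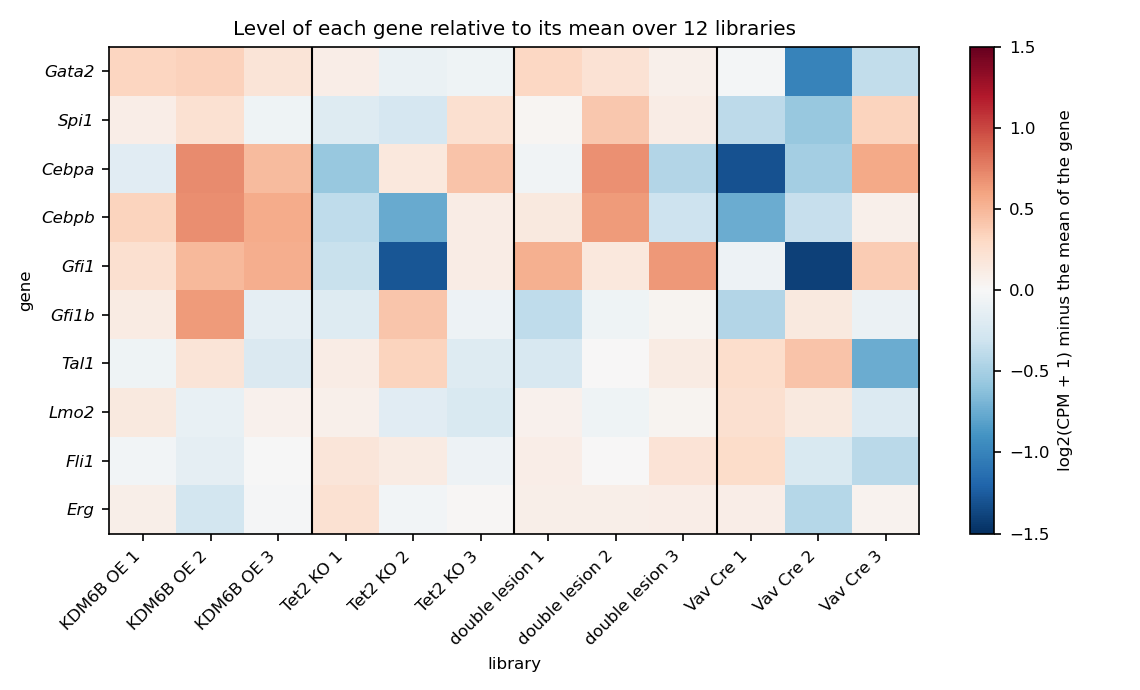
Log2(CPM + 1) of each factor minus its mean over the 12 libraries, as colour (red higher, blue lower), with libraries in columns and lines between groups. The Vav Cre columns hold the darkest blue, Cebpa in Vav Cre 1 at 2.8 CPM and Gfi1 in Vav Cre 2 at 7.64 CPM, and rows of Cebpa and Cebpb are reddest in KDM6B OE 2.

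Ratios of factors with opposed roles differed little between groups beside their spread. On the log2 scale Cebpa minus Gata2 was −4.31 ± 0.48 in KDM6B OE, −4.34 ± 0.61 in Tet2 KO, −4.50 ± 0.53 in the double lesion and −4.31 ± 1.18 in Vav Cre (SD, n = 3 each). Spi1 minus Gata2 was −0.98 ± 0.07 in KDM6B OE, −0.83 ± 0.31 in Tet2 KO, −0.80 ± 0.24 in the double lesion and −0.52 ± 0.56 in Vav Cre. Gata2 was thus above Spi1 on average in every group, in CPM and not per length, and the Vav Cre spread covers the other 3 means.

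How far the transgene differences held was read from 25 other settings of the same comparison. Gata2, Cebpb and Gfi1 stayed above 0 in each of them, with ranges of 0.25 to 0.60, 0.49 to 0.80 and 0.61 to 1.05. So did Spi1, at 0.14 to 0.41, and Cebpa, at 0.18 to 0.65, so a kept sign is not particular to Gata2, Cebpb and Gfi1. The settings share their libraries and are not separate evidence. By an exact permutation p under 0.05, Gata2, Cebpb and Gfi1 were the factors that passed in the 6 against 6 comparison, 3 of 10 beside 23.2% of all genes. For Tet2 loss the count was 0 of 10 beside 9.20% of genes. The Gata2 call of 0.0492 was lost without any 1 library of KDM6B OE, Tet2 KO or the double lesion (limma adjusted p from 0.052 to 0.13), in edgeR (0.0626), with a pseudocount of 0.25 (0.0514), without a filter (0.0579), with equal totals (0.0508), and with the length and GC trend removed, where the value was 0.25 (0.147). Without Vav Cre 3, 4 factors were called in this comparison, Gata2, Cebpb, Gfi1 and Spi1. Calls rose over all genes too, to 2777 in that setting against 568 with all 12 libraries.

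**Figure D5:**
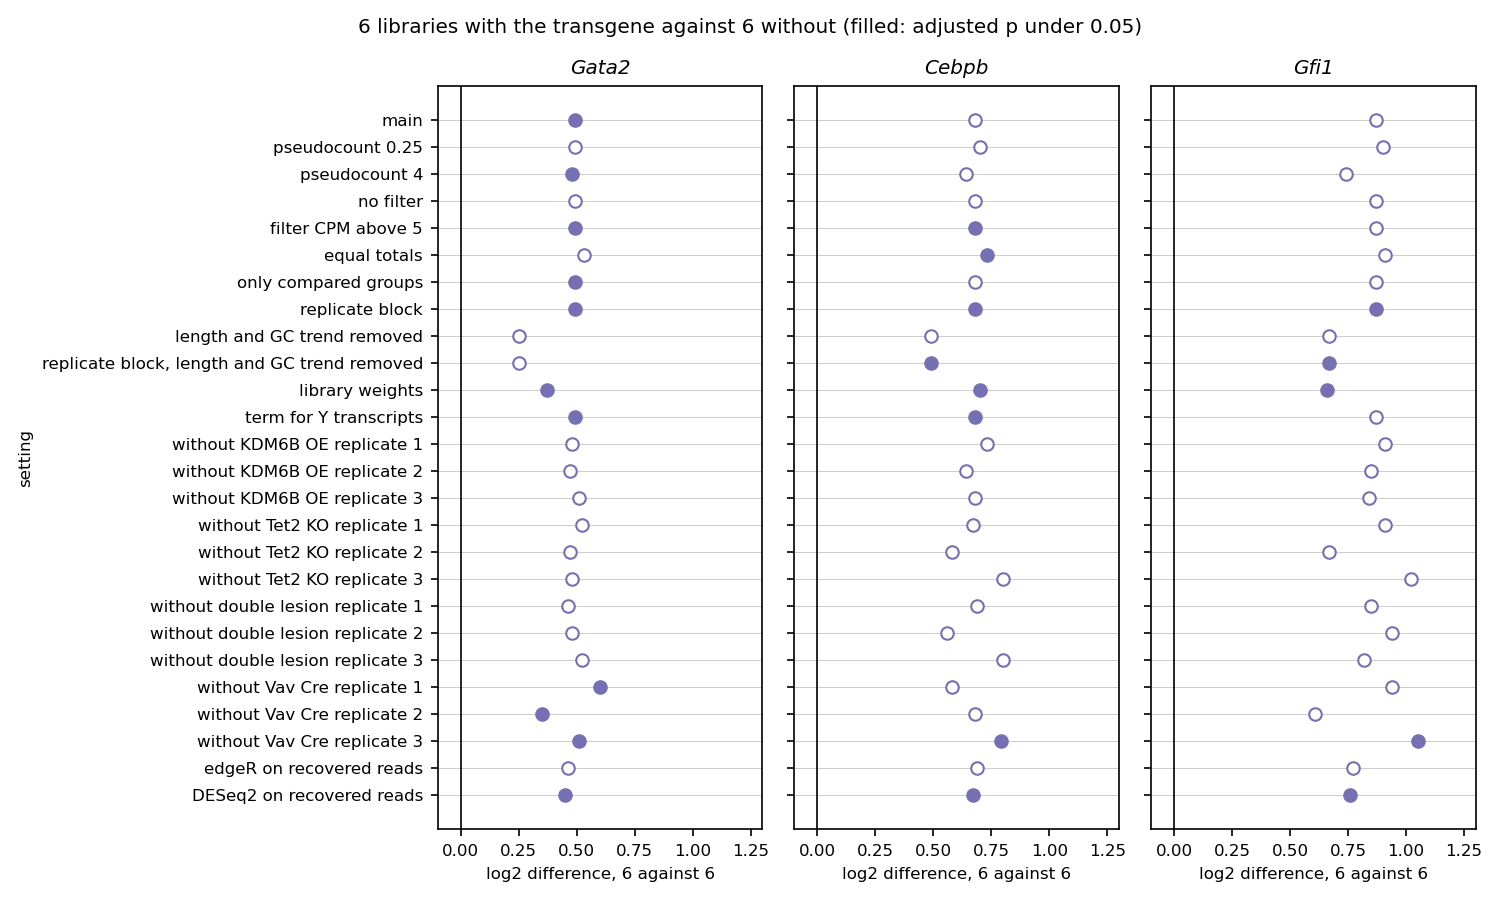
Log2 difference of Gata2, Cebpb and Gfi1 between the 6 libraries with the transgene and the 6 without, one row per setting, with the main setting at the top. Filled points have an adjusted p under 0.05; values stay above 0 in all 3 panels, and Gata2 falls to 0.25 when the length and GC trend is removed.

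Partners of the stem cell factors were read as a list of 25 genes. In the double lesion against Vav Cre 5 rose and 0 fell, with a median of 0.23 beside 0.05 over all genes and beside 14.9% of all genes called. Cbfa2t3, the ETO2 corepressor of the TAL1 complex, averaged 170 ± 5.73 CPM against 94.7 ± 15 CPM (0.85 ± 0.12, limma adjusted p = 0.00315). Myc rose by 0.61 ± 0.14, the HOX cofactor Meis1 by 0.64 ± 0.16, the LMO2-binding protein Ldb1 by 0.58 ± 0.16 and the stem cell factor Hlf by 0.68 ± 0.19 (limma adjusted p = 0.0155, 0.0209, 0.0312 and 0.0354). In KDM6B OE 1 rose, Cbfa2t3 again (0.77 ± 0.12, limma adjusted p = 0.0095), beside 0.598% of all genes called. In Tet2 KO none was called, beside 0.0307% of all genes, and Cbfa2t3 was at 0.70 ± 0.12 (limma adjusted p = 0.0597). With 1 library left out, 1 to 9 of the list rose in the double lesion, 1 without Vav Cre 2 and 9 without Vav Cre 3. Over all genes, 610 were called without Vav Cre 2 and 3589 without Vav Cre 3. When the fit held the compared groups alone, 2 of the list rose. Cbfa2t3 was the 1 of the 5 called in all such settings.

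Of 9 corepressors that work with GFI1 or GFI1B, 2 rose in the double lesion against Vav Cre, where 14.9% of all genes were called. They were the CoREST subunits Rcor2 (13 ± 2.91 CPM against 5.5 ± 1.98 CPM; 1.13 ± 0.30, limma adjusted p = 0.0271) and Rcor3 (42.9 ± 2.73 CPM against 30.2 ± 1.08 CPM; 0.49 ± 0.14, 0.0353). None was called in KDM6B OE or Tet2 KO, where Rcor3 was at 0.34 ± 0.14 and 0.25 ± 0.14. Both calls were lost without double lesion 1 or 3 or Vav Cre 1 or 2. With the compared groups alone 0 of the 9 were called.

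Other myeloid factors gave 7 rises among 21 tested in the double lesion, and 0 falls, where 14.9% of all genes were called and 7.34% were called higher. Egr1 (502 ± 148 CPM against 38.4 ± 21.1 CPM, limma adjusted p = 0.000445) and Jun (2767 ± 371 CPM against 782 ± 276 CPM, 0.0041) led, and both are also immediate early genes. The monocyte factor Klf4 (6.92 ± 3.67 CPM against 0.502 ± 0.185 CPM; 2.27 ± 0.49, limma adjusted p = 0.0134) rose at a low level. Spib, a relative of Spi1, averaged 1.19 ± 0.251 CPM and had no read in Vav Cre. It passed the filter on low values only through the double lesion libraries, so its place among the 7 is no support. Cebpe, of late granulocytes, rose by 0.97 ± 0.30 (limma adjusted p = 0.0455). In KDM6B OE Egr1 and Jun rose, beside 0.598% of all genes called. With the transgene in 6 libraries, 5 did, among them Egr1, Jun, Klf4 and Trib1, beside 4.35% of all genes called. Nfe2, described with the red cell factors, was also among the 7. With 1 library left out, 4 to 8 of the list rose in the double lesion, and 3 when the fit held the compared groups alone.

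Genes that these factors are known to activate were read as 2 further lists. Of 22 targets of PU.1 or C/EBP factors, 3 rose in the double lesion against Vav Cre and 0 fell (median 0.52 beside 0.05 over all genes), a share near the 14.9% of all genes called there. They were the ficolin gene Fcnb (2.04 ± 1.05 CPM against 0.0152 ± 0.0264 CPM, limma adjusted p = 0.0185), the interleukin 6 receptor gene Il6ra (1.02 ± 0.30, 0.0402) and Cd14 (0.93 ± 0.28, 0.0407). Fcnb averaged 0.228 ± 0.291 CPM in Tet2 KO. It passed the filter on low values only through libraries with the transgene, so its place among the 3 is no support. None of the 22 was called in KDM6B OE (median 0.09) or Tet2 KO (median 0.26). With 1 library left out 0 to 6 rose in the double lesion, 0 without double lesion 2 and 6 without Vav Cre 3. Over all genes, 747 were called without double lesion 2 and 3589 without Vav Cre 3. In edgeR 1 of the 22 rose. Of 9 markers of maturing neutrophils 5 rose in the double lesion, beside 14.9% of all genes called. Without double lesion 3, or with the compared groups alone, 2 rose, and in edgeR 3 did. Their sum was 16.9 to 28.6 CPM in KDM6B OE, 26.1 to 43.4 CPM in Tet2 KO and 23.6 to 64.7 CPM in the double lesion. All 3 ranges lay above the 12.5 to 16.8 CPM in Vav Cre, KDM6B OE only just. In Vav Cre the marker Cxcr2 alone held 14.1, 13.2 and 10.9 CPM. The part of maturing neutrophils in these values was not tested.

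Of 19 tested genes that GATA2, TAL1, GFI1B or their later partners serve in red cells, megakaryocytes and mast cells, 3 rose and 1 fell in the double lesion, beside 14.9% of all genes called. Their median was −0.04 beside 0.05 over all genes, and 8 of the 19 were above 0, beside 54.4% of all genes. The haem synthesis gene Alas2 averaged 11.5 ± 2.49 CPM against 1.99 ± 0.949 CPM in Vav Cre (2.10 ± 0.36, limma adjusted p = 0.00551). The red cell precursor markers as a set did not rise with Alas2. Of the 5 tested, Alas2 among them, 2 were above 0 and the median was −0.22. Hdc, which makes histamine, rose by 1.28 ± 0.37, and the platelet gene Pf4 fell by 1.04 ± 0.32 (limma adjusted p = 0.037 and 0.0426). Alas2 was called in all settings with 1 library left out, and Hdc and Pf4 were not. Of 9 markers of mast cells, basophils and eosinophils, 2 rose in the double lesion, the eosinophil granule genes Epx (510 ± 479 CPM against 41 ± 68.3 CPM, limma adjusted p = 0.0195) and Prg2 (1424 ± 1328 CPM against 154 ± 249 CPM, 0.0229). Il1rl1, the gene of a cytokine receptor of mast cells, fell by 1.06 ± 0.26 (limma adjusted p = 0.0201). Double lesion 1 held 1043 CPM of Epx and 2917 CPM of Prg2, and all 3 calls were lost without double lesion 1, double lesion 2 or Vav Cre 2. The sum of the 9 was 892 to 4368 CPM in the double lesion against 123 to 985 CPM in Vav Cre, and its part in the values of this list and of Gata2 was not tested. None of the 19 genes was called in KDM6B OE, where the mast cell genes Ms4a2 and Cpa3 were at −1.24 ± 0.30 and −0.88 ± 0.23 (limma adjusted p = 0.0806 and 0.101). Of the 9 markers, Il1rl1 fell in KDM6B OE (−1.66 ± 0.26, limma adjusted p = 0.0095) and 0 rose, beside 0.598% of all genes called. That call was lost with the compared groups alone (limma adjusted p = 0.0873). Of 10 further factors of red cells and megakaryocytes 1 rose in the double lesion, Nfe2 (0.30 ± 0.09, limma adjusted p = 0.0469), and 0 fell, again beside 14.9% of all genes; that call was lost without any 1 of 10 libraries and in edgeR.

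The genes whose profile over the 12 libraries was most like that of the 3 most variable factors were named by the smallest root mean square difference of centred log2(CPM + 1). For Gfi1 they were Nol6, Ccser1 and Acap3 (0.26, 0.27 and 0.28, where the profile of Gfi1 itself has a size of 0.66). Cebpa was nearest to Slc7a2, Rbm15 and Rhbdf2 (0.30, 0.32 and 0.34 beside 0.60), and Cebpb to Zfp46, Mon1a and Frat2 (0.23, 0.25 and 0.25 beside 0.49). All values of a profile come from the same libraries and share their depth.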

How the data were processed

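RNA of sorted LSK cells was measured by RNA-seq in 12 libraries, 3 in each of 4 groups. Per the labels' protocols, 10 to 20 ng of RNA went into SMARTer v4 and Nextera libraries, a kit that does not mark strand. The submitters' processing notes name TopHat2 2.0.10, HTSeq 0.6.0, edgeR 3.8.6 and mm10; of the annotation and the strand setting nothing is stated. The deposited values are CPM per gene and library. Their column totals differ between libraries, so the unit is treated as a signal scaled by the authors to an effective library size; a plain CPM had been foreseen when the tests were chosen. Dividing by the value of 1 read gave whole reads for 100% of values (tolerance 1e-06). No listed gene had fewer than 10 reads over all libraries.

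Genes with CPM above 1 in at least 3 libraries (13046 tested, 2320 set aside) entered a limma fit (3.58.1, R 4.3.3) of log2(CPM + 1) with 1 mean per group, all 12 libraries and 8 residual degrees of freedom, with Benjamini-Hochberg adjustment over all tested genes and a threshold of 0.05. A fold on this scale understates the change of low genes. A single gene was also tested by exact two-sided permutation in comparisons of 6 against 6; 3 against 3 cannot go below 0.1. edgeR 4.0.16 and DESeq2 1.42.0 were run on the recovered reads as alternatives. The fits were tested on simulated data. Members, lists, named genes (of each list up to 6 called, or the 2 with the smallest adjusted p where none was; for the 3 most variable members, the 3 nearest profiles) and tests were chosen with earlier results of these data known. Coordinates and exon lengths are from GENCODE vM21 (GRCm38), and promoter windows from RefSeq (GRCm38.p6). Some genes counted in the lists are not reported here by name.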

Additional observations from a re-analysis of the deposited data

How the results depend on the processing

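Of 1425 values of a factor in a comparison under another setting, 1285 kept their direction and side of the threshold, 88 changed sign, 28 passed and 24 no longer passed. For each of these the cause was not tested. The values do not cover every factor in every comparison, and some could not move. A library of an uncompared group left out keeps the difference of 2 groups, though not its p-value. The fit of compared groups alone repeats the main fit where all 4 groups enter. In KDM6B OE against Vav Cre, where none was called, 1 factor (Gata2) was called with a replicate block or a term for Y transcripts. There 2 (Gata2 and Cebpb) were called with library weights or DESeq2. With 1 library left out, 0 to 4 were called, 4 without Vav Cre 3, where 1936 genes were called in all against 78 in the main fit. In the double lesion against Vav Cre the count was 0 with the compared groups alone, with the length and GC trend removed (with or without the replicate block), with library weights and with the Y term, and 0 to 3 with 1 library left out. For the transgene in 6 libraries it was 0 with a pseudocount of 0.25, no filter, the length and GC trend removed, or edgeR; 2 with a CPM filter of 5, the replicate block with that trend removed, or the Y term; 3 with the replicate block, library weights or DESeq2; and 0 to 4 with 1 library left out. With equal totals it was 1, Cebpb in place of Gata2. By exact permutation the counts were 3 to 4 for the transgene and 0 to 1 for Tet2 loss with 1 library left out. Same-numbered libraries correlated over 0.1 in 10 of 18 pairs (−0.15 to 0.39), and 22 of 36 correlated best with their own number, a hint of shared structure. All 3 pairs were over 0.1 between Tet2 KO and Vav Cre (0.30 to 0.34), where the replicate block left the count of called factors at 0, and between no other groups. The other comparisons were therefore not taken as paired, though with the block Cebpb (adjusted p = 0.0355) and Gfi1 (0.022) passed for the transgene and Gata2 (0.0417) in KDM6B OE.

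Signs that turned were near 0 in most cases. In KDM6B OE against Vav Cre, with equal totals Tal1 was 0.03 and Lmo2 0.02; with the Y term Tal1 0.03 and Lmo2 0.05; with library weights Fli1 −0.16 and Erg −0.12; in DESeq2 Fli1 −0.00 and Erg −0.02; and Erg −0.08 with the length and GC trend removed, with or without the replicate block. In Tet2 KO against Vav Cre, Cebpb was 0.04 with equal totals and 0.40 with library weights, which also gave Gfi1 0.02, Tal1 −0.17 and Fli1 −0.05, and Tal1 was −0.03 with the trend removed, with or without the replicate block. In the double lesion against Vav Cre, with equal totals Gfi1b was 0.08, Tal1 0.06 and Lmo2 0.04, and Gfi1b was 0.19 with library weights and 0.10 with the Y term. The interaction of Cebpa was 0.00 with the Y term. For the transgene, Lmo2 was −0.01 and Erg −0.06 with the trend removed, with or without the replicate block, Lmo2 −0.01, Fli1 −0.04 and Erg −0.05 with library weights, and Erg −0.00 in DESeq2. For Tet2 loss, Cebpa was −0.01 and Tal1 −0.04 with the trend removed, with or without the replicate block, Gfi1 0.02 and Tal1 −0.09 with library weights, and Gfi1b 0.02 with the Y term.

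With 1 library left out, ranges that crossed 0 were, in KDM6B OE, Tal1 −0.37 to 0.21, Lmo2 −0.16 to 0.06, Fli1 −0.09 to 0.26 and Erg −0.15 to 0.12. In Tet2 KO they were Spi1 −0.04 to 0.41, Cebpa −0.03 to 0.91, Cebpb −0.23 to 0.20, Gfi1 −0.66 to 0.25, Gfi1b −0.02 to 0.31, Tal1 −0.26 to 0.33 and Erg −0.01 to 0.26. In the double lesion they were Gfi1b −0.16 to 0.13, Tal1 −0.38 to 0.21 and Lmo2 −0.18 to 0.04. For the transgene they were Gfi1b −0.03 to 0.17, Tal1 −0.25 to 0.05, Lmo2 −0.02 to 0.09, Fli1 −0.03 to 0.14 and Erg −0.06 to 0.07, and for Tet2 loss Cebpa −0.15 to 0.32, Gfi1 −0.31 to 0.14, Gfi1b −0.18 to 0.02 and Tal1 −0.13 to 0.16. Equal totals moved the median of all genes in the double lesion to 0.12. Length and GC were known for 96% of tested genes. Depth did not limit these values, since the lowest level of a factor was 2.8 CPM.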
